A study of Drosophila melanogaster with 6 samples.

Results

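Suppressor of Hairless, Su(H), was mapped by chromatin immunoprecipitation and sequencing (ChIP-seq) in Drosophila melanogaster embryos, and the binding peaks of the X chromosome are described here. The authors deposited 1 list of 4403 peaks, on FlyBase release 5. Of these, 220 lay on X, and 218 are described after peaks with a midpoint from 3025000 to 3070000, the interval of the Notch (N) locus, were set aside. The set-aside peaks were 3056091 to 3057171, with a score of 169, and 3063016 to 3063244, with a score of 8.92. The nearest peaks kept were 2835774 to 2836011, with a score of 9.65, and 3073386 to 3073837, with a score of 16.2. The second of these began 3386 bp beyond the upper bound, 10141 bp after the last set-aside peak.

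The series comprised 3 libraries of Su(H) ChIP DNA and 3 of input DNA, the ChIP made with a rabbit polyclonal antibody against amino acids 259 to 594 of the protein. All 6 came from embryos of the Y cn bw sp strain, labelled as stage 0-8 and of unknown sex. The protocol text of the same labels speaks of an egg laying of 8-16 hours. The ChIP and the input embryos thus shared 1 genotype. Its visible markers were y[1] on X and cn[1], sp[1] and bw[1] on the second chromosome. The labels also list oc[R3.2] on X, then CG33964[R4.2], Gr22d[1] and Gr22b[1] on the second, and on the third chromosome Rh6[1], GstD5[1], MstProx[1], lab[R4.2] and LysC[1]. Whole embryos mix many cell types, and the peaks are not assigned to single libraries. Replicate error, a test between libraries and read depth could not be had from the list.

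Su(H) is the DNA-binding protein through which the Notch pathway reaches its target genes. When Notch is cleaved, its intracellular domain joins Su(H) and Mastermind to activate transcription, and in its absence Su(H) recruits Hairless and co-repressors. The Notch gene itself lies on X, near the telomere. Release 5 numbers X from the telomere towards the centromere. No release 5 sequence or annotation was used here, so peaks are named by position and carry no gene, exon or motif.

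Most X peaks were low-scoring and narrow, and a few stood far above the rest. The MACS score, the authors' value for each peak, had a median of 13.9 over the 218 peaks and quartiles of 11.0 and 17.9. It ran from 6.42 to 265. The scale of the score is not given in the sources used here, so it ranks and describes peaks only. Ratios, sums and scores per length given below are arithmetic on the listed values, not amounts of binding. Scores of 10 to 15 were held by 102 peaks, or 46.8%, and scores above 20 by 42 peaks, or 19.3%. The 10 highest peaks held 18.2% of the summed score of 3748. Scores also recurred: there were 165 distinct values, and 80 peaks shared theirs with another X peak. The commonest value, 12.8, occurred 6 times, at widths from 201 to 712 bp. Equal scores therefore did not go with equal widths.

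Widths had a median of 360.5 bp and quartiles of 273 and 501 bp. No peak was narrower than 201 bp, and 10 peaks were wider than 1 kb. The 3 peaks at the lower limit, 5500665 to 5500865, 10593643 to 10593843 and 18192108 to 18192308, scored 6.73, 6.42 and 12.8. Next in width came 3998876 to 3999078, 5795399 to 5795601 and 13151940 to 13152142, each 203 bp wide, with scores of 9.98, 11.4 and 9.65. All of these narrowest peaks were below the X median in score. Score and width rose together across peaks, with a Spearman coefficient of 0.50 over the 218 peaks of 1 list, which are not independent replicates. Peaks of 201 to 250 bp had a median score of 10.8, those of over 500 and up to 750 bp one of 15.7, and those wider than 1 kb one of 25.6. The relation was loose at the top, where the peaks ranked 2 and 3 by score were only 566 and 512 bp wide. Among the upper 50% of peaks by score the coefficient was 0.18, and among the upper 20% it was 0.38. Both subsets were cut by score, so their coefficients are not directly comparable with that of all peaks.

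**Figure D1:**
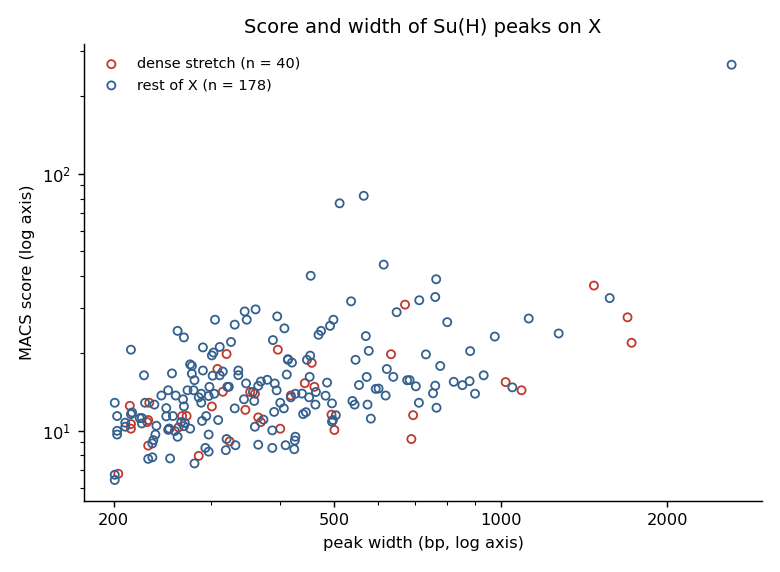
MACS score against width in bp for each of the 218 X peaks, both on log axes, with the 40 peaks of the dense stretch in red and the 178 of the rest of X in blue. The point at 2613 bp and a score of 265 stands apart, and the peaks scoring 82.0 and 76.6 are narrow for their score.

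The strongest of the kept X peaks stood alone. A peak is called isolated when no other kept X peak lay within 5 kb, edge to edge, and 107 of the 218 peaks were. The 5 highest scores among the kept peaks all belonged to isolated ones, and the sixth, 38.8, was the highest score of any peak with a neighbour. The peak with the top score, 11901181 to 11903793, scored 265 and was also the widest of X at 2613 bp. Its score was 3.24 times the next highest among the kept peaks and 19.1 times the X median. Against the set-aside peak of 169 in the Notch interval, which would rank 2 on X, it was 1.57 times as high. The peaks nearest to it were 151272 bp away on the telomere side and 511238 bp away on the centromere side. No weaker X peak was listed between.

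The second highest kept peak, 17401155 to 17401720, scored 82.0 over 566 bp. The third, 9029079 to 9029590, scored 76.6 over 512 bp. Per 100 bp of width these came to 14.5 and 15.0, the highest of the kept X peaks, against 10.2 for the top peak and a median of 3.91. Whether the score adds up over length is not known, and dividing by width lowers the value of wide peaks. These 2 were compact peaks, whereas the top peak was broad. Their nearest neighbours lay 25559 and 15103 bp away, so that neither was part of a group at the 5 kb distance. The fourth, 10201991 to 10202605, scored 44.2 and followed a stretch of 552853 bp without a peak. The fifth, 16446974 to 16447427, scored 40.04 over 454 bp. Among the kept peaks the widest step below the top peak was here, as the third scored 1.73 times the fourth.

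Below these, the isolated peaks formed a graded series. The peak 581657 to 582193 scored 31.8, 2626175 to 2626535 scored 29.6, and 1029002 to 1029346 scored 29.1. Towards the centromere, 21404167 to 21404561 scored 27.8. The peaks 6879917 to 6880415, 7863388 to 7863692 and 16737375 to 16737722 each scored 27.0, at widths of 499, 305 and 348 bp. The last of the 15 highest were 8527056 to 8527856 at 26.4, 5649376 to 5649706 at 25.8 and 18101993 to 18102484 at 25.6. These 15 peaks were spread along the arm, with 12 of them more than 50 kb from any other X peak. Their median distance to the nearest peak was 117 kb, against 58.7 kb for all 107 isolated peaks. None of the 15 lay in the dense stretch described below, which held only 8 of the 107 isolated peaks.

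**Figure D2:**
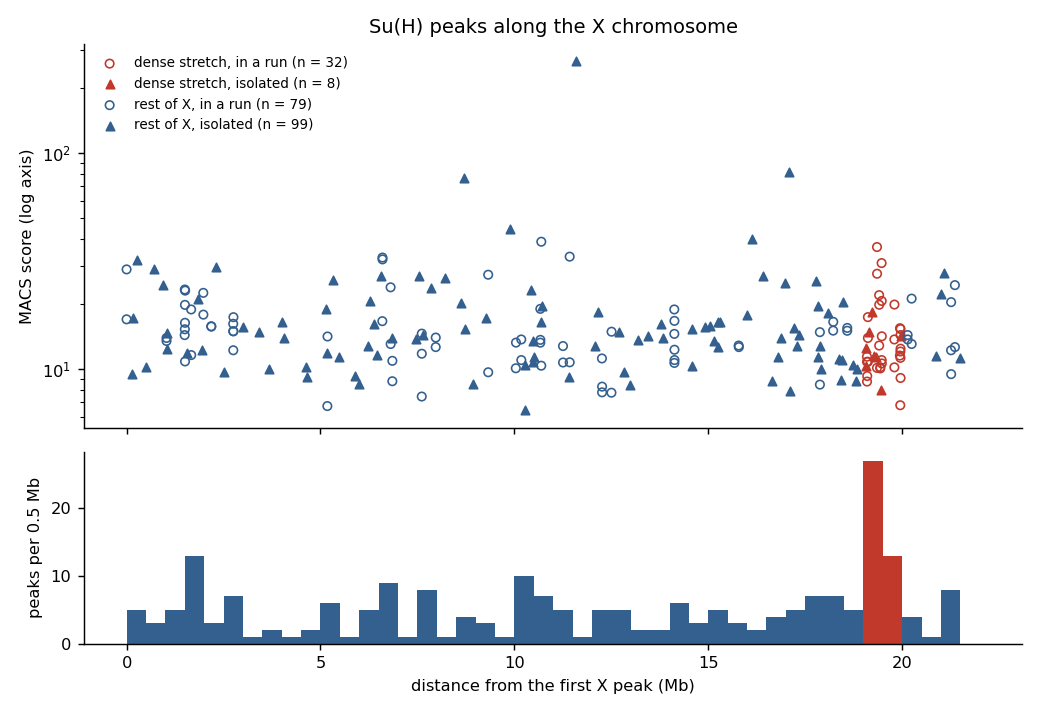
Upper panel: MACS score (log axis) of each X peak against its distance in Mb from the first X peak, with triangles for isolated peaks, circles for peaks in runs and red for the dense stretch. Lower panel: peaks per 0.5 Mb. The 5 highest points are isolated peaks outside the dense stretch, and the fullest 0.5 Mb holds 27 peaks.

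The other 111 peaks, 50.9% of the total (exact 95% binomial interval 44.1 to 57.7%, counting error only), had a neighbour within 5 kb. Chained by such gaps they formed 40 runs, which with the 107 isolated peaks makes 147 separate loci. Runs were small: 25 were pairs, 9 held 3 peaks, 1 held 4, 2 held 5, 1 held 6 and 2 held 7. Their median span was 2.29 kb, and the longest reached 12.4 kb. Within runs, the highest peak had up to 3.75 times the score of the lowest, with a median of 1.62 times.

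Peaks in runs and isolated peaks had similar typical scores, with medians of 13.7 and 13.9. Scores above 30 were held by 6 of 111 peaks in runs and by 6 of 107 isolated peaks. The groups differed only in the 5 peaks above 40, all isolated. Peaks in runs reached 38.8 and isolated peaks 265. Scores above 20 were found in 18 of 111 peaks in runs and in 24 of 107 isolated peaks. Peaks in runs were the wider, with medians of 396 and 336 bp, and 8 of the 10 peaks wider than 1 kb lay in runs. The definition of a run uses edges and thus width to a small degree. Distances between midpoints gave the same number of runs, 40, but widths were not compared under that definition. The highest-scoring peaks of the runs had a median width of 559 bp, and the other 71 peaks of runs one of 346 bp. Score and width rose together on X, so this split by score is itself tied to width. The highest peak stood first in 20 runs and last in 14. It stood inside in 6 of the 15 runs of 3 or more, the only ones with an inner peak.

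The longest run lay from 1821993 to 1834355 and held 7 peaks, which covered 3.11 of 12.4 kb. Its scores were 14.3, 23.3, 15.3, 19.8, 16.4, 10.8 and 23.0 from the telomere side. No single peak dominated, and the highest held 19.0% of the summed score of 123, the largest sum of any run on X. The other run of 7, from 20273192 to 20281334, lay in the dense stretch and was weaker. Its scores ran from 6.79 to 15.3 and summed to 81.2, and 5 of its peaks were packed into the last 3 kb.

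The run of 6 peaks, 14446207 to 14452629, scored 18.9 at most, and the run of 5 from 3073386 to 3079687 scored 17.4 at most. The run of 5 lay next to the set-aside interval, beyond a gap of 10141 bp. The run of 5 from 19791711 to 19797814 had scores of 30.9, 11.0, 20.6, 14.2 and 10.6. The run of 4 from 19414897 to 19421721 was the weakest of those with 4 or more, with scores of 11.4, 10.8, 8.74 and 9.27. No peak of these 6 larger runs thus exceeded 30.9.

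The highest peaks in runs lay in pairs and triplets. Of the 18 peaks in runs that scored above 20, 14 were in runs of 2 or 3, which held 77 of the 111 peaks in runs, and 4 in larger ones. At 11017138 to 11017902 a peak of 38.8 had a neighbour of 10.4 only 66 bp away. At 11748859 to 11749620 a peak of 33.1 had one of 10.7 at 78 bp. These pairs are a strong peak with a narrow side peak of 210 bp each. A different form was seen from 6918338 to 6923607, where peaks of 32.8 and 32.2 lay 230 bp apart, 1574 and 713 bp wide, after a weaker one of 16.6. The pair nearest to the telomere, 323898 to 324919, had scores of 17.0 and 28.9.

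**Figure D3:**
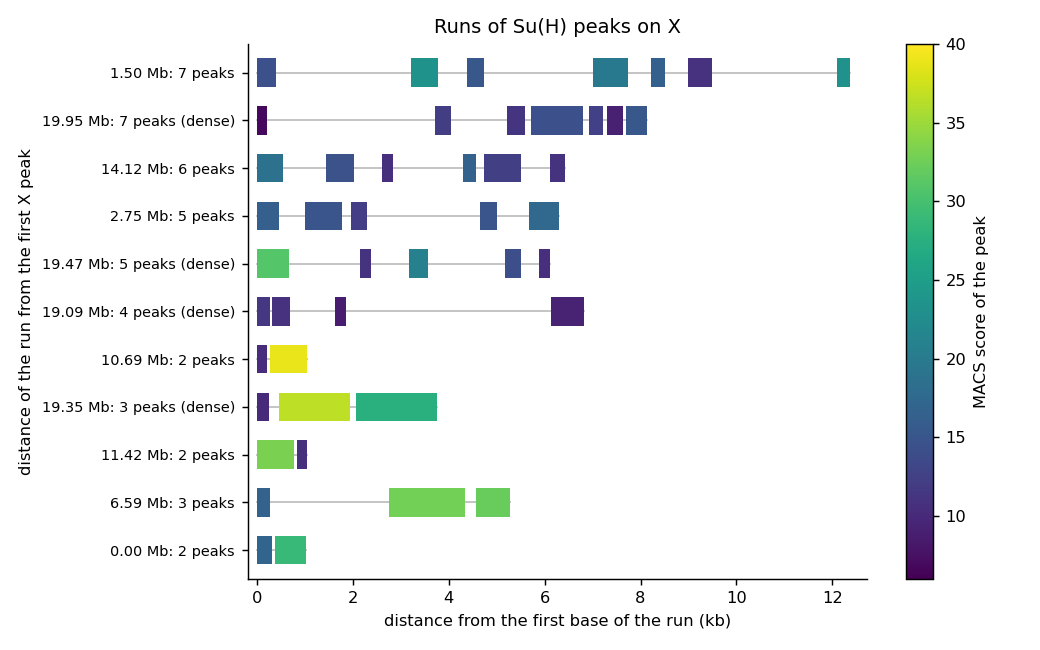
The 6 runs of 4 or more X peaks and, below them, the 5 shorter runs with the highest single score, each drawn from its own first base in kb. Boxes are peaks to scale, coloured by MACS score, and row labels give the distance of the run from the first X peak and its number of peaks. The longer runs hold scores of up to 30.9, and the highest, 38.8, is in a pair.

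Gaps between adjacent X peaks covered a wide range. The median of the 217 gaps was 37.9 kb, and the smallest was 50 bp. Gaps of up to 100 bp numbered 14, those of over 100 and up to 500 bp 21, and those of over 500 bp and up to 1 kb 13. A further 23 were of over 1 and up to 5 kb, and 26 of over 5 and up to 20 kb. The commonest class was 100 to 300 kb with 58 gaps. Gaps within runs had a median of 555 bp and gaps between loci one of 106 kb. Joining peaks across gaps of up to 1 kb left 170 peaks and merged 21 of the 40 runs into a single peak each. With peaks so joined, 24.7% had a neighbour within 5 kb.

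The 5 kb distance divided few close cases. Just inside it were gaps of 4265, 4272, 4284 and 4534 bp, and just outside it gaps of 5012, 5020, 5292 and 5362 bp. Scores of adjacent peaks were nearly unrelated, both within runs (Spearman 0.04 over 71 neighbouring pairs) and across longer gaps (0.01 over 146). The score of a peak thus said little about that of the next.

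**Figure D4:**
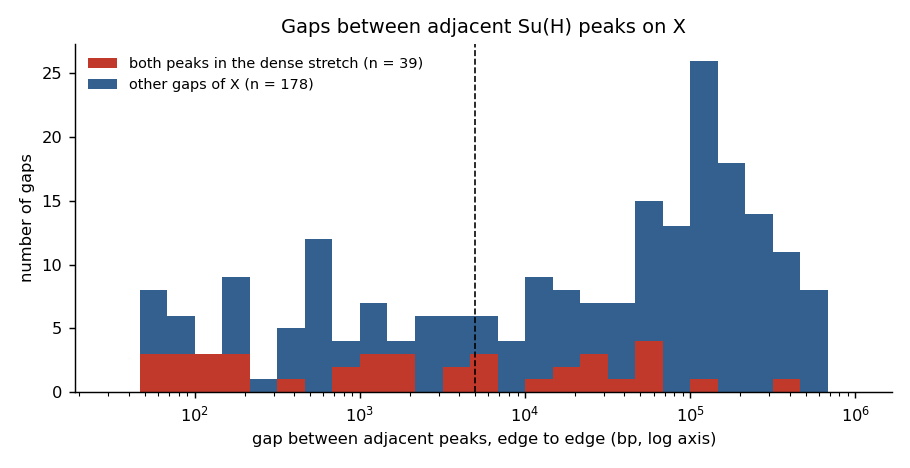
Number of gaps between adjacent X peaks by gap length in bp (log axis), stacked, with the 39 gaps inside the dense stretch in red and the other 178 in blue; the dashed line marks 5 kb. Gaps inside the dense stretch have a median of 1.62 kb and the others one of 66.3 kb.

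The most crowded part of X was the 1 Mb from 19.3 to 20.3 Mb. Its bounds were set with the peak counts known and coincide with the fullest 1 Mb window of X, so its density is a description. Intervals for its share of peaks or loci take the bounds as fixed beforehand. They give counting error only, not the uncertainty of a window chosen as the fullest. The stretch held 40 peaks, 18.3% of the total (exact 95% binomial interval 13.4 to 24.1%), against 178 over the remaining 20.5 Mb of span. That is 40 peaks per Mb in the stretch and 8.69 per Mb in the rest of X. The next fullest window outside it, 10040001 to 11040000, held 18.

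Crowding was greater for peaks than for loci. The 40 peaks made up 17 loci, 9 runs and 8 isolated peaks, against 130 loci in the rest of X. Counted as loci the stretch held 11.6% of X (exact interval 6.88 to 17.9%), at 17 per Mb against 6.35 per Mb elsewhere. Of its peaks, 80% were in runs (64.4 to 90.9%), against 44.4% in the rest of X (37.0 to 52.0%). Peaks of a run share their membership, so these intervals, which treat peaks as independent, are too narrow. A crowded stretch has more close neighbours by its definition, so the shares follow from the density in part. Runs of 3 or more numbered 7 in the stretch and 8 in all the rest of X. The distance to the nearest peak had a median of 592 bp in the stretch and 9.62 kb in the rest.

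The 6 highest kept scores of X lay outside the stretch, a count too small to set the stretch apart. Scores in the stretch had a median of 12.2, quartiles of 10.5 and 15.3 and a maximum of 36.7, against a median of 14.1, quartiles of 11.2 and 18.3 and a maximum of 265 in the rest. The ranges overlapped almost wholly, and 6 peaks elsewhere exceeded the highest of the stretch. Scores above 20 were held by 5 of 40 peaks in the stretch and by 37 of 178 in the rest. Of the 44 highest X peaks the stretch held 7, or 15.9%, near its 18.3% of all peaks. Its 8 isolated peaks scored between 7.97 and 18.4. Median widths were alike, at 356.5 bp in the stretch and 363 bp in the rest. No test was made of these differences, since peaks of 1 list are not replicates.

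The widest peaks were an exception, and only at the extreme. The stretch held 5 of the 10 X peaks wider than 1 kb and 3 of the 5 widest, but also 5 of the 20 widest. Peaks over 500 bp were 10 of 40 in the stretch and 45 of 178 in the rest of X. The 5 wider than 1 kb scored 14.4 to 36.7 and came to 1.27 to 2.49 score units per 100 bp. The wide peaks of the rest of X came to 1.40 to 10.2 per 100 bp, the upper value being the top peak of the arm. Broad peaks of low score per length thus occurred in both, though dividing by width lowers the value of any wide peak.

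Of these wide peaks, 3 lay in dense triplets. From 19672370 to 19676118, peaks of 10.1, 36.7 and 27.6 covered 91.3% of 3.75 kb, the last 2 being 1474 and 1695 bp wide. From 19727500 to 19730324, peaks of 21.96, 12.8 and 19.8 covered 91.7% of 2.83 kb, the first of them 1724 bp wide. Each triplet became a single peak when peaks up to 1 kb apart were joined. So did the triplet from 19437915 to 19438969, a shorter one with scores of 17.4, 10.8 and 13.9.

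The remaining runs of the stretch were looser. From 20120740 to 20123241 peaks of 13.7, 10.2 and 19.9 covered 45.5% of 2.50 kb. Pairs lay from 19757019 to 19759096, with scores of 10.1 and 10.2, and from 20263696 to 20266895, with scores of 11.5 and 15.4. The second peak of that last pair was 1021 bp wide. The strongest isolated peak of the stretch, 19536312 to 19536767, scored 18.4.

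The stretch was not evenly filled. Its first 27 peaks, in 13 loci, lay within 410 kb from 19387510 to 19797814. The other 13 peaks, in 4 loci, lay within 173 kb from 20120740 to 20293620. Between these pieces 323 kb held no peak. The strongest 5 peaks of the stretch were all in the first piece, whose scores reached 36.7, against 19.9 in the second. Median scores of the pieces were close, at 11.5 and 12.4. The first piece held 6.58 peaks per 100 kb and the second 7.52.

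**Figure D5:**
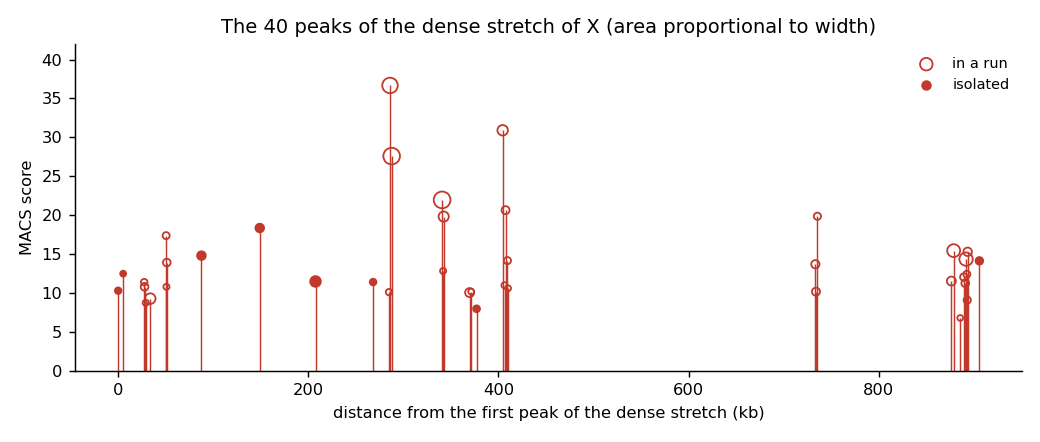
MACS score of the 40 peaks of the dense stretch against distance in kb from its first peak, with open circles for peaks in runs, filled circles for isolated peaks and circle area proportional to width. There are 27 peaks in the first 410 kb and 13 in the last 173 kb, with no peak over the 323 kb between them.

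Along the rest of the arm peaks were spread thinly, at the 8.69 per Mb given above. Bins of 1 Mb were counted from position 1, and the 22 bins include those of the dense stretch. A bin held 9.91 ± 5.88 peaks (SD over bins, which are not replicates), with a median of 8 and a range of 4 to 30. None of these bins was empty, and positions beyond the bin of the last peak were not counted. The emptiest, 4000001 to 5000000, held 4 isolated peaks. The fullest were 19000001 to 20000000 with 30 peaks and 20000001 to 21000000 with 17, which divide the dense stretch between them. Next came 1000001 to 2000000 and 18000001 to 19000000 with 16 each, and 10000001 to 11000000 with 14. The last 3 were crowded in different ways. The bin 18000001 to 19000000 had 13 loci, of which 10 were isolated peaks, whereas 7 of the 16 peaks of 1000001 to 2000000 belonged to 1 run.

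Outside the dense stretch, peaks per Mb ranged from 7.60 to 9.20 between segments of the arm. The first 5 Mb carried 8.40 peaks per Mb, the span from 5 to 10 Mb 7.60 and that from 10 to 15 Mb 9.20. From 15 to 19.3 Mb there were 9.07 per Mb, and from 20.3 to 22 Mb 7.65. In loci the same segments carried 5.40, 5.80, 6.20, 8.14 and 4.71 per Mb, the highest value being that of 15 to 19.3 Mb. Grouping varied more. From 15 to 19.3 Mb only 8 of 39 peaks, 20.5% (exact interval 9.30 to 36.5%), were in runs. In the 3 segments before it the share was 52.4, 42.1 and 52.2%, with intervals that overlap each other. Beyond 20.3 Mb it was 69.2%, of 13 peaks (38.6 to 90.9%). The segment on the telomere side of the crowded stretch was thus mostly single peaks, 31 of its 35 loci. Peaks of a run are not independent, so these intervals are too narrow, and whether the segments differ was not tested.

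Median scores changed little with position, and the share of higher scores rested on few peaks per segment. Outside the dense stretch, segment medians ran from 15.4 in the first 5 Mb, through 14.2, 13.2 and 14.4, to 13.7 beyond 20.3 Mb. In these segments 21.4, 31.6, 10.9, 15.4 and 38.5% of peaks scored above 20. These were 9 of 42, 12 of 38, 5 of 46, 6 of 39 and 5 of 13 peaks. The dense stretch had a median of 12.2, with 12.5% above 20, and its peaks enter the coefficients that follow. The Spearman coefficient of position and score was -0.14 over the 218 peaks, and that of position and width was -0.008. Each of the 3 highest kept peaks lay between 5 and 19.3 Mb. The set-aside peak of 169 in the Notch interval, which would rank 2 on X, lay in the first 5 Mb. The ends of the arm were not counted as gaps. The longest gaps between adjacent kept peaks were 20567579 to 21195904 (628 kb), 7177410 to 7785794 (608 kb) and 4377269 to 4959077 (582 kb). They were followed by 9649138 to 10201990 (553 kb) and 11030558 to 11576805 (546 kb). The longest of them lay 274 kb beyond the crowded stretch, so that the fullest window of X and its longest gap lay close together.

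Set beside the 4 large autosomal arms, X had fewer peaks, with much the same median score and width. The kept X peaks were 218 of the 2067 on the 5 arms, 10.5% (exact interval 9.26 to 12.0%). It carried 10.1 peaks per Mb of the span from first to last peak, against 17.8 on 3L to 22.1 on 2R. In loci it carried 6.84 per Mb, against 12.1 on 3R to 14.3 on 2R. The ratio of X to the mean of the 4 arms was 0.52 for both. X is 1 arm, no test over arms was made, and the number of X copies in embryos of unknown sex was not tested as a part of the difference.

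The share of peaks in runs was 50.9% on X, within the range of 43.1% on 3L to 56.2% on 2L. The median score was 13.9 on X, against 13.0 on 2L to 13.8 on 3R, and the median width 360.5 bp, against 340 on 2L to 355 bp on 2R. Both X medians were slightly above those of all 4 arms, by less than the quartiles of any arm span.

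The upper end of the scores differed in count. X had 5 kept peaks above 40, or 2.29% of its kept peaks, against 3.36% on 2L to 6.45% on 3L. With the set-aside peaks of the Notch interval X had 6, or 2.73%, and nothing was set aside on the other arms. The cut of 40 was chosen after the scores were seen, as the lowest of the 5 scored 40.04 and the next kept peak 38.8. On X all 5 were isolated. On the autosomal arms 6 of 15 were isolated on 2L, 6 of 19 on 2R, 15 of 28 on 3L and 14 of 32 on 3R. The highest peak in a run scored 38.8 on X, against 270 on 2L, 829 on 2R, 290 on 3L and 446 on 3R. Among the 10 highest peaks of each arm, kept ones only on X, 5 were isolated on X, against 5 on 2L, 3 on 2R, 5 on 3L and 1 on 3R. The difference was thus in the few strongest peaks, and with 5 such peaks on X it was not tested.

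A crowded 1 Mb was found on every arm. The fullest window held 40 peaks on X, against 44 on 3L, 45 on 3R and 48 each on 2L and 2R. Since X has fewer peaks, this was 18.3% of its peaks, against 8.91% on 3R to 10.7% on 2L. The window was fuller relative to its own arm on X, though no fuller in number. Median scores inside and outside the window were 12.2 and 14.1 on X, 12.4 and 13.0 on 2L, 14.6 and 13.3 on 2R, 12.6 and 13.5 on 3L, and 16.6 and 13.6 on 3R. Lower scores in the fullest window were therefore seen on X, 2L and 3L, and higher ones on 2R and 3R.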

How the data were processed

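The authors deposited 1 peak list with a MACS score per peak, on FlyBase release 5 and with MACS as its source, per the file headers. The submitters' processing notes name BWA, MACS2, CASAVA (1.7.0.2, 1.7.0.3) and the build BDGP5, with no roles. Not given in the sources used here are the scale of the score, the calling threshold and the way the 6 libraries were pooled, so read depth and replicate error are unknown. Broad enrichment can be listed as several peaks, which raises counts and runs.

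X peaks were taken by chromosome and midpoint, and gaps were counted edge to edge. Runs chained gaps of up to 5 kb. Windows of 1 Mb moved by 10 kb. Intervals are exact (Clopper-Pearson, 95%) and treat peaks as independent. Those for the share held by the dense stretch also take its bounds as fixed beforehand, which they were not. Peaks of a run share their membership, so intervals for shares of peaks in runs are too narrow. No tests were run. Gene coordinates at hand were on Release 6 and were not set against release 5 peaks.

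The members, the bounds of the dense stretch and the lists were chosen with earlier results of these data known. Regions named were the 15 highest isolated peaks and the 10 highest of X and of the dense stretch. Named too were runs of 4 or more, the 5 shorter runs with the highest score and all runs of the dense stretch. The 5 widest and narrowest peaks were named, with a further peak tied at 203 bp. So were the 5 longest gaps and the fullest and emptiest bins. Calculations used Python 3.11.15, numpy 2.4.6, pandas 2.3.3 and scipy 1.17.1, and run calling was checked on made-up peaks.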

Additional observations from a re-analysis of the deposited data

How the results depend on the processing

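Of 61 comparisons with an alternative setting, 39 stayed close to the reported value and 22 moved. Some outcomes were fixed by the setting, so the tally does not measure robustness. A cut by score lowers the number of peaks and raises the median score, and the fullest 1 Mb window coincides with the dense stretch. Keeping only the 50% of X peaks with the highest score left 109 peaks, 4.95 per 1 Mb bin, 13 runs and 32.1% with a neighbour, with medians of 17.9 for score and 452 bp for width and a score and width coefficient of 0.18. The top 20% gave 44 peaks, 2 per bin, 4 runs, 36 isolated peaks, 18.2% with a neighbour, medians of 26.1 and 505.5 bp, and 0.38. Joining gaps of up to 1 kb gave 19 runs, 24.7% with a neighbour and a median width of 397.5 bp. The share with a neighbour was 43.6% at 2 kb and 66.1% at 20 kb. Counted as loci, the dense stretch held 11.6% in place of 18.3%, an alternative added after the data were seen. The ratio of X to the autosomal arms, 0.52, ran from 0.45 without the dense stretch to 0.52 in its 4 alternatives, also added later. Keeping the N locus peaks left 9 recomputed values within these limits, but the ratio of the top score to the next was then 1.57 in place of 3.24, a comparison added later. A count was taken as close within 1.5 times, and shares and medians within their 95% intervals. Leaving out each library could not be done, as peaks are not assigned to libraries. No paired analysis was possible because peaks carry no replicate number. With read depth unknown, a stretch without peaks does not show that Su(H) was absent there.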
